A study of Mus musculus with 6 samples.

Results

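Integrins are transmembrane receptors, each made of 1 alpha and 1 beta chain, that tie cells to the extracellular matrix. The 10 genes described here are Itgb4, the integrin beta4 chain, and 9 other subunits attributed to endothelial cells: the alpha chains Itga6, Itga1, Itga3, Itga5 and Itgav and the beta chains Itgb1, Itgb3, Itgb5 and Itgb8. They were chosen by symbol from 24421 genes in the count table. Itgb4 entered the set because an earlier DESeq2 comparison of these same 6 libraries called it higher in the mutant, and the other 9 were listed with results of that comparison known. Levels and fold changes of the 10 genes are therefore a description, with no test read as support. All 10 were among the 14362 genes that passed the filter on low counts, and the table held 17 further integrin subunits.

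The integrin alpha6 chain pairs with beta1 or with beta4, and both pairs bind laminins of the basement membrane. The beta4 chain differs from other beta chains in a long cytoplasmic part that binds plectin and so links the receptor to intermediate filaments, as in the hemidesmosomes of epithelia. In the mouse brain beta4 has been described on the endothelium of arterioles. Of the other receptors, alpha3-beta1 binds laminins, alpha1-beta1 binds collagens, alpha5-beta1 binds fibronectin, and the alphav pairs bind vitronectin and related ligands or, with beta8, activate latent TGF-beta.

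Mouse pups of mixed BL6/CD1 background received tamoxifen on postnatal day 1, and RNA was taken from their retinal endothelial cells on day 7. In the 3 Smad4-iECKO samples, floxed Smad4 was combined with Cdh5-CreERT2, a Cre recombinase driven by the promoter of the endothelial cadherin gene Cdh5 and switched on by tamoxifen. The 3 Smad4f/f samples are listed as floxed Smad4 with no Cre, so an effect of CreERT2 itself cannot be told apart from one of Smad4 loss. The labels do not say whether a sample was 1 pup or a pool. Whether the spread that p-values measure lies between pups, between pools or is partly technical is therefore not known.

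Total counts ran from 2233360 in Smad4-iECKO replicate 2 to 23164952 in Smad4f/f replicate 2. The shallow library also stood apart: its log2 CPM (counts scaled to a common library size with TMM) correlated with the other libraries at 0.817 to 0.858 across genes, against 0.903 to 0.976 among those. A count of 3 was worth 1.39 CPM in it and 0.123 to 0.239 CPM elsewhere. Smad4 itself was at 128.1, 93.8 and 133.8 CPM in Smad4-iECKO cells and at 109.4, 152.8 and 157.4 CPM in Smad4f/f, both in the order of replicates 1, 2 and 3 used throughout. Its log2 fold change was -0.24 (standard error 0.29), and a count per gene includes exons that Cre leaves in place, so it does not check the labels. The 12 endothelial markers listed for this comparison (Pecam1, Cdh5, Kdr, Cldn5 and others) were all present, with summed levels of 2132 to 4514 CPM in Smad4-iECKO cells and 1246 to 6405 CPM in Smad4f/f. The 8 rod photoreceptor markers summed to 4326 to 5888 CPM in Smad4-iECKO cells and 3920 to 7507 CPM in Smad4f/f, so transcripts of neural retina were present in every library. In such bulk samples fewer cells of a type and less RNA per cell cannot be told apart.

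Itgb4 and Itgb3 were the 2 subunits of the 10 whose level was higher in all 3 Smad4-iECKO libraries than in any Smad4f/f library. None of the 10 was lower in all 3. Among all tested genes 2.49% were higher and 2.83% lower in all 3 Smad4-iECKO libraries. Of the 10 genes, 7 had a positive log2 fold change, with a median of 0.23, against 48.2% of all tested genes and a median of -0.02. By edgeR's quasi-likelihood test with Benjamini-Hochberg adjustment over the 14362 genes, 0 of the 10 passed an adjusted p of 0.05, as did 0.0% of all genes. Each of the 10 had an adjusted p of 1.00, and the smallest of any gene was 0.864. Before adjustment 188 genes had a p under 0.05, 2 of them in this set (Itgb4 and Itgb3). DESeq2 called 12 of 19645 genes (0.0611%), among them Itgb4, and limma-voom with sample quality weights called 8 of 14362 (0.0557%), none of them in this set.

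**Figure D1:**
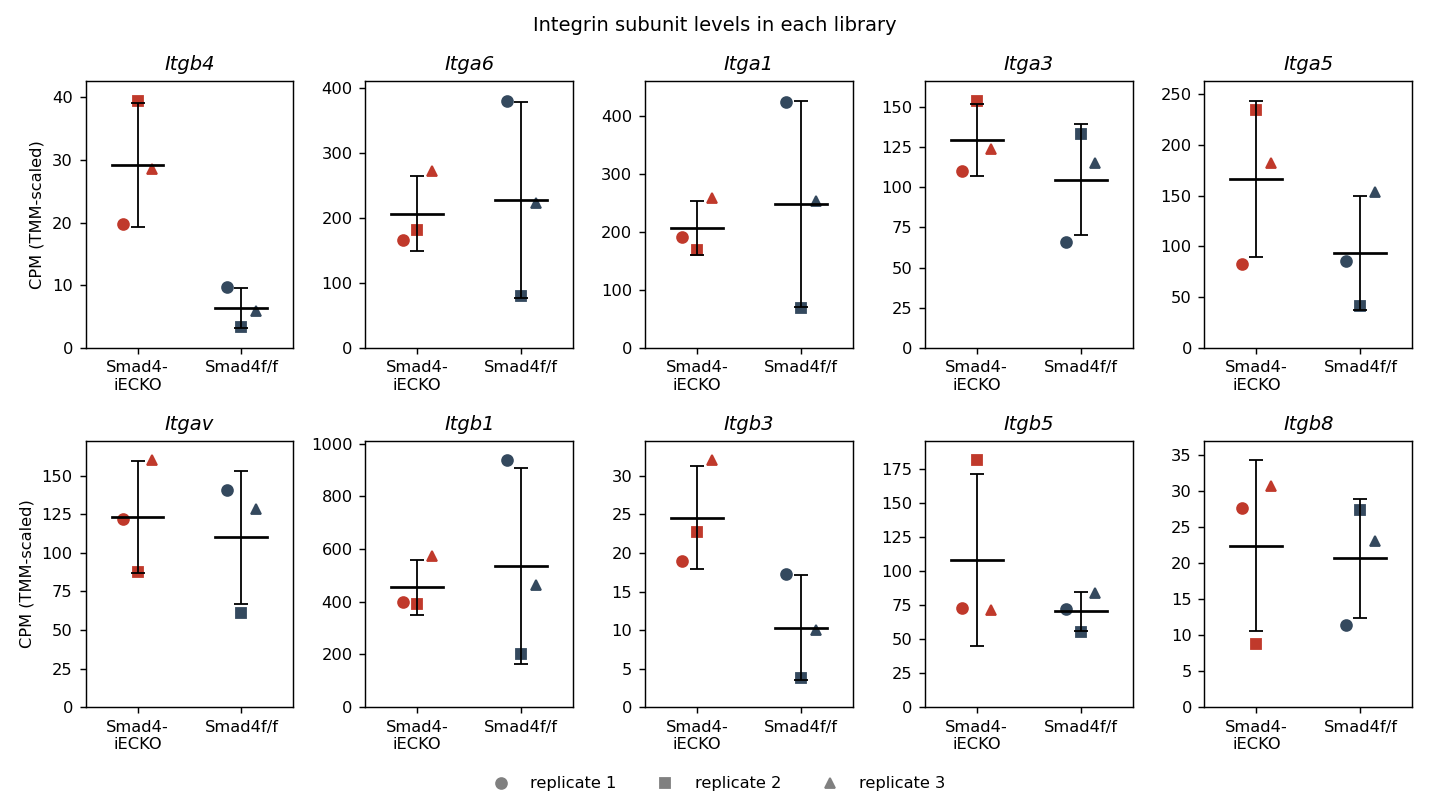
Levels of the 10 integrin subunits in CPM (TMM-scaled, linear axes from 0), with Smad4-iECKO left of Smad4f/f; points are libraries, bars the mean and its SD over 3 libraries, and equal markers do not pair samples across groups. Itgb4 lies between 19.7 and 39.5 CPM in Smad4-iECKO cells and between 3.37 and 9.69 CPM in Smad4f/f, while the groups of Itga6, Itga1 and Itgb1 overlap, with Smad4f/f replicates 1 and 2 as the highest and the lowest library.

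Itgb4 (ENSMUSG00000020758.15, chromosome 11, 115974709 to 116008412, plus strand, mm10) held 355, 85 and 359 reads in Smad4-iECKO replicates 1, 2 and 3, against 123, 82 and 78 reads in Smad4f/f replicates 1, 2 and 3. Scaled, these were 19.7, 39.5 and 28.6 CPM in Smad4-iECKO cells and 9.69, 3.37 and 5.83 CPM in Smad4f/f. The groups did not overlap: the lowest Smad4-iECKO library stood above the highest Smad4f/f library. The means were 29.3 ± 9.9 CPM in Smad4-iECKO cells and 6.30 ± 3.18 CPM in Smad4f/f (SD, n = 3 each). The ratio of the means was 4.65, and the fitted log2 fold change was 2.21 (standard error 0.49). Itgb4 was highest in the shallow Smad4-iECKO replicate 2, and without that library the log2 fold change was 1.92. The DESeq2 call that chose the gene had an adjusted p of 0.0239 and did not hold in 5 of the 6 fits that left out a library: the DESeq2 adjusted p was 0.0854, 0.169 and 0.383 without Smad4-iECKO replicates 1, 2 and 3, and 0.181 and 0.820 without Smad4f/f replicates 2 and 3. Without Smad4f/f replicate 1 it was 0.0002. In the GENCODE annotation 537 of the 7015 exonic bases of Itgb4 overlap a gene on the opposite strand, and strand use in counting is not given in the sources used here. In the same annotation 685 of the 18599 exonic bases of Itga1 overlap a gene on the same strand and 634 of the 10744 of Itgav one on the opposite strand.

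Surface epithelium, where beta4 is a classic component, gave almost no signal in these libraries. Its 10 listed markers summed to 2.72 to 5.57 CPM in Smad4-iECKO cells and 4.10 to 4.93 CPM in Smad4f/f. The basal keratin genes Krt5 and Krt14 had 0 counts in all 6 libraries, and the highest single value of the list was 3.71 CPM (Dsp, the desmosomal protein desmoplakin). The 6 Schwann cell markers, for another cell type that carries beta4, summed to 15.3 to 21.1 CPM in Smad4-iECKO cells and 8.02 to 26.3 CPM in Smad4f/f, most of it from Pmp22. The 10 arterial endothelial markers (Gja4, Gja5, Efnb2 and others) summed to 540.6 to 1055 CPM in Smad4-iECKO cells and 394.6 to 1211 CPM in Smad4f/f, with overlapping groups. Single arterial markers went both ways, 4 with a positive and 6 with a negative log2 fold change. They ran from -1.71 (Bmx) to 0.74 (Dll4), with Gja4 at -1.41 (standard error 0.52), and the groups overlapped for each. The part of these cell types in the Itgb4 difference was not tested.

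The alpha6 chain that pairs with beta4 did not follow it. Itga6 (ENSMUSG00000027111.15, chromosome 2, 71745616 to 71858416, plus strand) was at 166.2, 181.1 and 272.7 CPM in Smad4-iECKO cells and 380.9, 79.1 and 223.5 CPM in Smad4f/f. The Smad4f/f libraries thus held both the highest and the lowest value. The means were 206.7 ± 57.7 CPM in Smad4-iECKO cells and 227.8 ± 150.9 CPM in Smad4f/f, a log2 fold change of -0.14 (standard error 0.51), which turned positive (0.45) without Smad4f/f replicate 1. Itgb1 (ENSMUSG00000025809.15, chromosome 8, 128685654 to 128733200, plus strand), the beta chain shared by most endothelial integrins, was at 400.1, 390.0 and 574.6 CPM in Smad4-iECKO cells and 936.1, 202.3 and 465.2 CPM in Smad4f/f. Here too the Smad4f/f libraries bracketed the Smad4-iECKO libraries, and the log2 fold change was -0.23 (standard error 0.51). Itga3 (ENSMUSG00000001507.16, chromosome 11, 95044474 to 95076801, minus strand), the laminin-binding alpha3 chain, was at 110.1, 154.1 and 123.9 CPM in Smad4-iECKO cells and 66.2, 133.2 and 115.2 CPM in Smad4f/f. Its groups overlapped, with a log2 fold change of 0.30 and a standard error of 0.33.

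Because both transcripts are read in the same library, the ratio of Itgb4 to Itga6 does not depend on the scaling of libraries, apart from the small constant of 0.5 CPM added before taking logs. On the log2 scale this ratio was -3.05, -2.18 and -3.23 in Smad4-iECKO replicates 1, 2 and 3, against -5.23, -4.36 and -5.15 in Smad4f/f replicates 1, 2 and 3. The groups did not overlap, and their means differed by 2.09. Per kilobase of exon, Itgb4 had 15.2, 28.0 and 13.5 CPM for every 100 CPM of Itga6 in Smad4-iECKO. In Smad4f/f it had 3.27, 5.48 and 3.36 CPM. The log2 ratio of Itgb1 to Itga6, the other pair that alpha6 forms, was 1.26, 1.10 and 1.07 in Smad4-iECKO and 1.30, 1.35 and 1.06 in Smad4f/f. That ratio overlapped between the groups, with an SD of 0.10 in Smad4-iECKO and 0.16 in Smad4f/f.

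Itga1, the collagen-binding alpha1 chain (ENSMUSG00000042284.10, chromosome 13, 114953096 to 115101964, minus strand), was at 190.6, 169.5 and 259.2 CPM in Smad4-iECKO cells and 424.4, 68.6 and 253.6 CPM in Smad4f/f. Its pattern over the libraries was that of Itgb1 and Itga6, with overlapping groups and a log2 fold change of -0.27 (standard error 0.56). Itga5 (ENSMUSG00000000555.8, chromosome 15, 103344286 to 103366763, minus strand), the fibronectin-binding alpha5 chain, was at 82.9, 234.5 and 182.2 CPM in Smad4-iECKO cells and 85.0, 41.4 and 153.4 CPM in Smad4f/f. The log2 fold change was 0.83 (standard error 0.52), and Smad4-iECKO replicate 1 lay below 2 of the Smad4f/f libraries. Without the shallow Smad4-iECKO replicate 2 it was 0.49, and without Smad4f/f replicate 3 it was 1.39. In the 4 samples titled Lit38 it was 0.14, and with limma-voom quality weights it was 0.18.

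Among the alphav integrins the beta3 chain stood out. Itgb3 (ENSMUSG00000020689.4, chromosome 11, 104608000 to 104670476, plus strand) was at 19.0, 22.7 and 32.0 CPM in Smad4-iECKO cells and 17.3, 3.74 and 10.01 CPM in Smad4f/f. The groups did not overlap, but Smad4-iECKO replicate 1 and Smad4f/f replicate 1 were close. The means were 24.6 ± 6.71 CPM in Smad4-iECKO cells and 10.3 ± 6.76 CPM in Smad4f/f, a log2 fold change of 1.26 (standard error 0.54). Leaving out Smad4f/f replicate 1 gave 1.84, and leaving out replicate 2 of that group gave 0.85. Platelets also carry beta3: their 6 listed markers summed to 7.21, 33.9 and 8.20 CPM in Smad4-iECKO cells and to 8.98, 8.59 and 8.07 CPM in Smad4f/f, mostly from Gp1bb. In Smad4-iECKO replicate 2 the whole sum came from Gp1bb (73 reads), and Ppbp, Pf4, Gp1ba, Gp9 and Treml1 had 0 reads. Without that library, which had the highest sum, the log2 fold change of Itgb3 was 1.29. Since its sum was Gp1bb alone, leaving that library out cannot show what platelets add. The part of platelets in the level of Itgb3 was not tested.

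Itgav (ENSMUSG00000027087.11, chromosome 2, 83724397 to 83806916, plus strand), the alpha chain of these receptors, was at 122.0, 87.3 and 159.8 CPM in Smad4-iECKO cells and 140.8, 61.0 and 128.1 CPM in Smad4f/f. It overlapped between the groups, with a log2 fold change of 0.17 (standard error 0.38). The log2 ratio of Itgb3 to Itgav was -2.65, -1.92 and -2.30 in Smad4-iECKO and -2.99, -3.86 and -3.61 in Smad4f/f, again without overlap. Itgb5 (ENSMUSG00000022817.15, chromosome 16, 33829665 to 33949338, plus strand), the beta chain of the second vitronectin receptor, was at 72.7, 181.5 and 71.1 CPM in Smad4-iECKO cells and 72.2, 55.5 and 84.1 CPM in Smad4f/f. Its log2 fold change of 0.61 (standard error 0.41) rested on Smad4-iECKO replicate 2, without which it was 0.0027. Itgb8 (ENSMUSG00000025321.14, chromosome 12, 119158022 to 119238802, minus strand), a chain best known in the retina and brain from glia and neural progenitors, was at 27.7, 8.82 and 30.7 CPM in Smad4-iECKO cells and 11.4, 27.4 and 23.1 CPM in Smad4f/f. The groups overlapped, the value in Smad4-iECKO replicate 2 rested on 19 reads, and the log2 fold change was 0.14 (standard error 0.51). The 9 astrocyte and Mueller glia markers summed to 647.2 to 1348 CPM in Smad4-iECKO cells and 568.4 to 1252 CPM in Smad4f/f, and their part in Itgb8 was not tested.

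**Figure D2:**
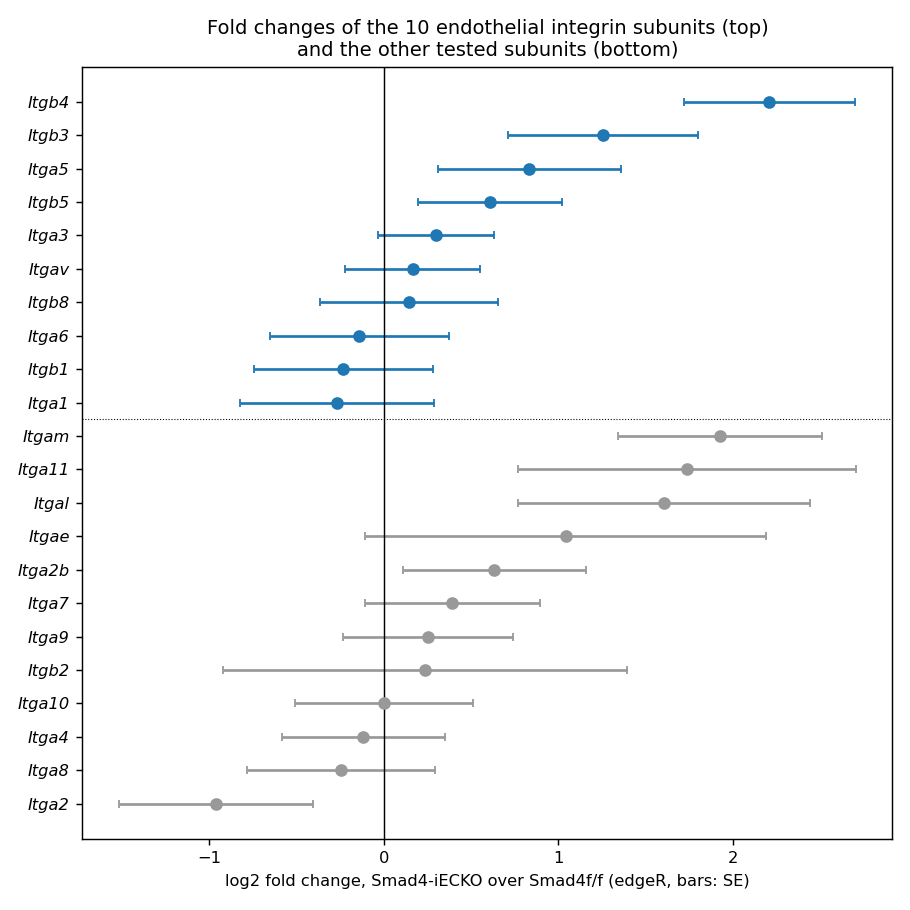
Log2 fold change of Smad4-iECKO over Smad4f/f (edgeR, horizontal axis, bars are standard errors) for the 10 subunits in blue above the dotted line and for the 12 other tested subunits in grey. Itgb4 (2.21) and Itgb3 (1.26) lie highest among the 10, and Itgam (1.93) highest among the others.

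Divided by exon length, the order of the 10 genes was headed by Itgb1 in both groups. Itgb1 was at 111.5 ± 25.4 CPM per kilobase in Smad4-iECKO and 131.0 ± 91.1 in Smad4f/f. Itgb4 was the least abundant of the 10 in Smad4f/f, at 0.898 ± 0.454 CPM per kilobase, and ranked 8 of 10 in Smad4-iECKO, at 4.17 ± 1.41. In Smad4-iECKO the order was Itgb1, Itga5, Itgb5, Itga6, Itga3, Itgav, Itga1, Itgb4, Itgb3 and Itgb8. The ranges of neighbours in it were apart between Itgb1 and Itga5, Itga3 and Itgav, Itga1 and Itgb4, and Itgb3 and Itgb8. In Smad4f/f the order was Itgb1, Itga6, Itgb5, Itga5, Itga3, Itga1, Itgav, Itgb8, Itgb3 and Itgb4, and the ranges were apart between Itgb1 and Itga6 and between Itgav and Itgb8. All other neighbours overlapped. Of the summed length-scaled level of the 10 genes, Itgb4 made up 1.38%, 2.09% and 1.40% in Smad4-iECKO and 0.382%, 0.405% and 0.341% in Smad4f/f. The Smad4f/f shares lay within a narrow range although the sum itself ran from 118.6 to 362.0 CPM per kilobase there.

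**Figure D3:**
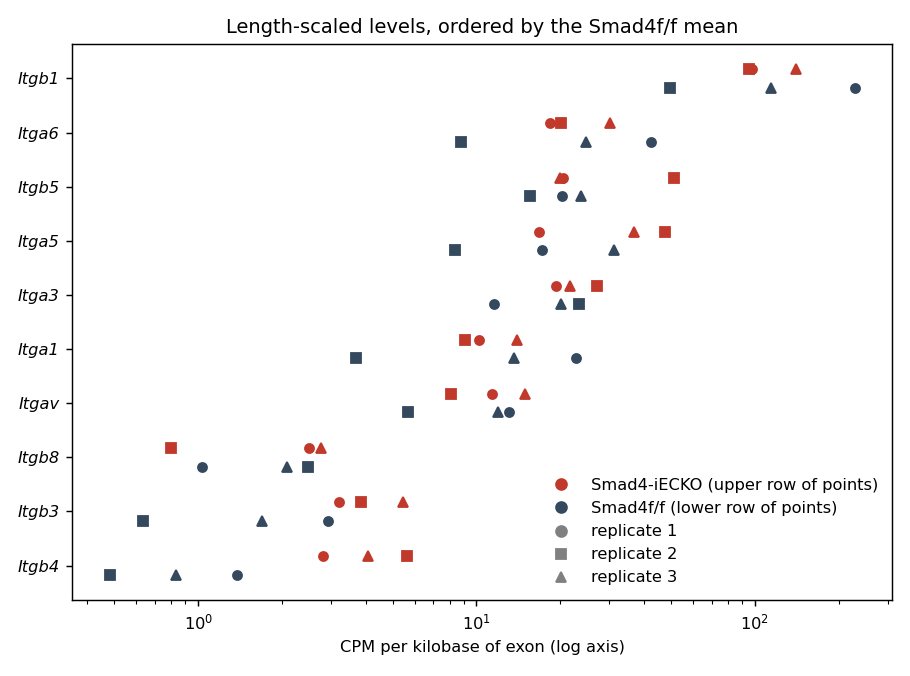
CPM per kilobase of exon (log axis) for the 10 subunits in each library, with Smad4-iECKO in red above Smad4f/f in grey-blue, ordered by the Smad4f/f mean. Itgb1 lies above the other 9 in every library, and Itgb4, at the bottom, has all Smad4-iECKO points right of all Smad4f/f points.

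The level of endothelial markers differed between libraries of 1 group, so each subunit was also set against the mean log2 level of the 12 endothelial markers in the same library. That mean was 7.001, 7.78 and 7.62 in Smad4-iECKO and 8.66, 6.14 and 7.68 in Smad4f/f, a range of 2.52. Itga6, Itga1 and Itgb1 followed it: their log2 ranges over the 6 libraries were 2.26, 2.62 and 2.21, and relative to the markers 0.75, 0.94 and 0.81. All 3 genes and the marker mean were highest in Smad4f/f replicate 1 and lowest in Smad4f/f replicate 2, as was the sum of the 10 pericyte and smooth muscle markers (1117 to 2073 CPM in Smad4-iECKO cells and 624.4 to 2863 CPM in Smad4f/f), whose part was not tested. The ranges of Itgb4, Itgb3 and Itga5 narrowed less, from 3.37 to 2.86, from 2.94 to 1.92 and from 2.49 to 2.35. Itga3 and Itgb8 did not follow the markers, with ranges of 1.21 and 1.74 that widened to 3.53 and 3.75. Those of Itgav and Itgb5 widened from 1.38 to 1.46 and from 1.70 to 2.21. Relative to the markers, Itgb4 was at -2.66, -2.46 and -2.76 in Smad4-iECKO and at -5.31, -4.19 and -5.02 in Smad4f/f (log2). The SD was 0.15 in Smad4-iECKO and 0.59 in Smad4f/f, and the group means differed by 2.21. Itgb3 was at -2.72, -3.24 and -2.60 in Smad4-iECKO and at -4.51, -4.05 and -4.29 in Smad4f/f, a difference of 1.44. These were again the 2 subunits of the 10 that lay above in all 3 Smad4-iECKO libraries, as 1.71% of all tested genes did, and none of the 10 lay below in all 3 (0.815% of all tested genes).

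**Figure D4:**
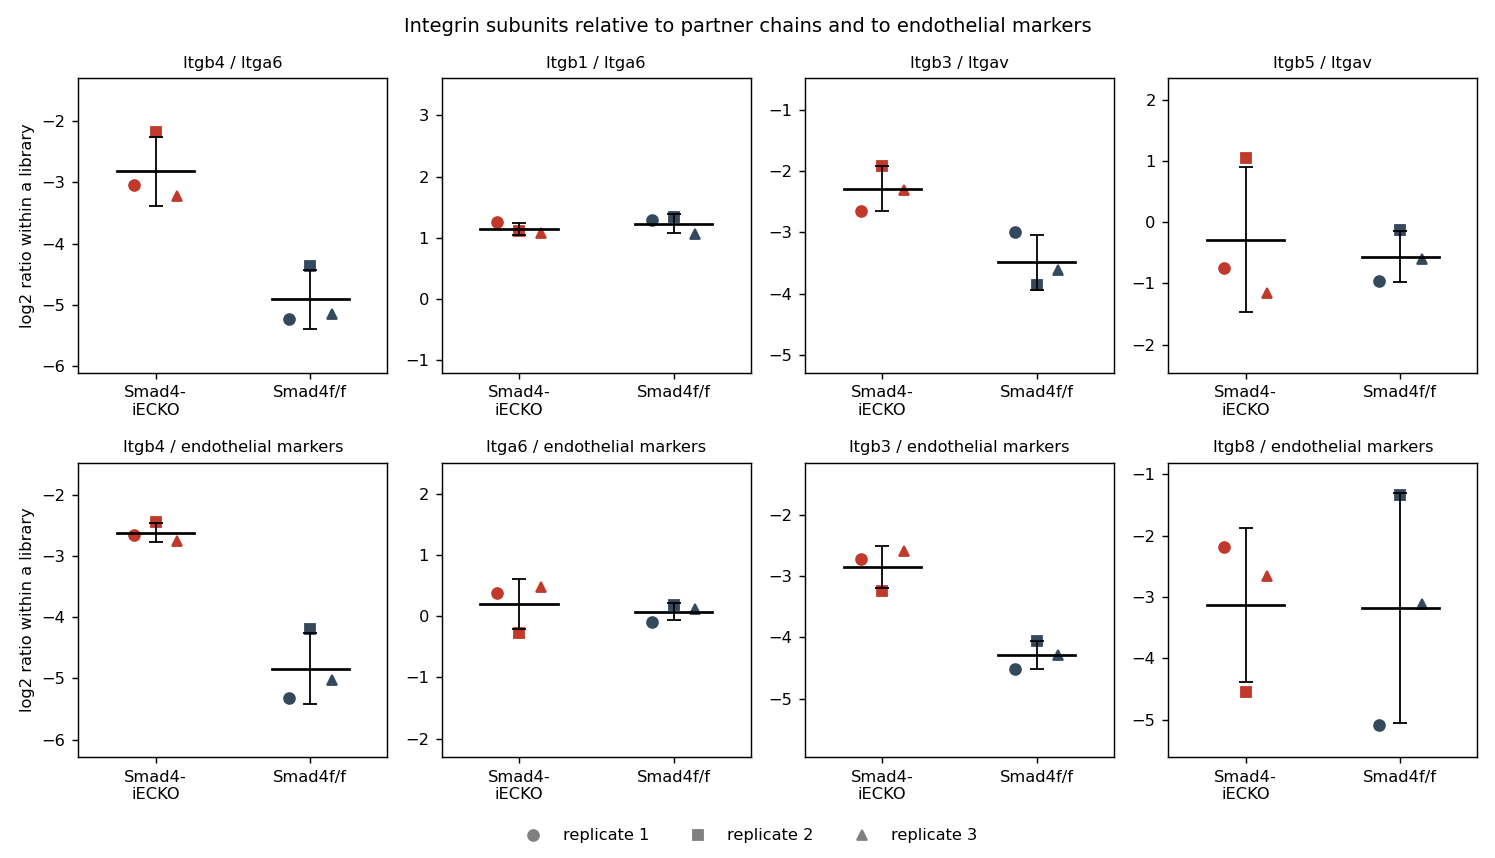
Log2 ratios within each library of beta chains to their alpha partner (top) and of subunits to the mean of the 12 endothelial markers (bottom), Smad4-iECKO left of Smad4f/f, with the mean and SD over 3 libraries and the same vertical span in every panel. The ratio of Itgb4 to Itga6 averages -2.82 in Smad4-iECKO and -4.91 in Smad4f/f, whereas the ratio of Itgb1 to Itga6 averages 1.15 in Smad4-iECKO and 1.23 in Smad4f/f.

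Sample titles begin with Lit38 for 4 samples (2 per group) or Lit40 for 1 sample per group, a prefix whose meaning the labels do not give. Within Lit38, Itgb4 had a log2 fold change of 1.62 (standard error 0.41, edgeR) and both Smad4-iECKO libraries lay above both Smad4f/f libraries. In the Lit40 pair the log2 difference was 3.37, and relative to the endothelial markers it was 1.73, against 2.46 within Lit38. Itgb3 was higher within both as well, by 0.88 (standard error 0.41) in Lit38 and by 2.45 in the Lit40 pair. Itgb1, Itga6 and Itga1 had negative values within Lit38 (-0.54, -0.48 and -0.61) and positive differences in the Lit40 pair (0.95, 1.19 and 1.30). Itgb5 was likewise at -0.13 within Lit38 and 1.70 in the Lit40 pair. Itgb8 ran the other way: both Lit38 Smad4-iECKO libraries lay above both Smad4f/f libraries (0.74, standard error 0.38), and the Lit40 difference was -1.58. The Lit40 pair is 1 library per group, has no test, and joins the library with the lowest endothelial markers to the shallow one.

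In the authors' deposited table Itgb4 had a log2 fold change of 1.94 (standard error 0.22) and an adjusted p of 4.21e-15. The same values for Itgb3 were 1.05, 0.26 and 0.00159 in the authors' deposited table, and these 2 of the 10 genes passed an adjusted p of 0.05, as did 13.4% of its 14225 genes. For Itga5 and Itgb5 the authors' deposited table gave adjusted p of 0.057 and 0.065. The count table lists each sample in 3 columns that were identical in all 24421 genes. A DESeq2 fit that entered all 18 columns as separate samples, with a prior on the fold changes, differed from the authors' deposited table by at most 0.0083 in the log2 fold change of the 10 genes, called Itgb4 and Itgb3 and 11.8% of 18526 genes. With each sample entered once and no prior, DESeq2 standard errors of the 10 genes were 2.06 to 2.42 times those in the authors' deposited table. That ratio may thus also hold an effect of the prior, beside that of the repeated columns. With no prior in either fit, the standard error of Itgb4 was 0.26 on all 18 columns and 0.51 with each sample entered once.

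Of the other 17 integrin subunits, 12 were tested, 0 passed in either direction by edgeR, 9 had a positive log2 fold change and the median was 0.32. Itga4, the fibronectin- and VCAM1-binding alpha4 chain, was at 100.4 ± 29.5 CPM in Smad4-iECKO cells and 109.2 ± 59.9 CPM in Smad4f/f. Itga7, Itga8, Itga9 and Itga10 had log2 fold changes of 0.39, -0.24, 0.25 and 0.00018, with standard errors of 0.49 to 0.54, and overlapping groups. The collagen-binding chain Itga2 was at 7.25 ± 3.91 CPM in Smad4-iECKO cells and 14.7 ± 6.32 CPM in Smad4f/f, with a log2 fold change of -0.96 (standard error 0.55) and overlapping groups. Itga2b, the platelet partner of beta3, was at 7.63 ± 2.91 CPM in Smad4-iECKO cells and 4.82 ± 1.52 CPM in Smad4f/f, also overlapping. Itga11 reached 10.7 CPM in the shallow Smad4-iECKO replicate 2, from 23 reads, and lay between 0.493 and 2.07 CPM in the other 5 libraries.

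The leukocyte chain Itgam was the subunit outside the 10 with all Smad4-iECKO libraries above all Smad4f/f libraries, at 5.44, 12.1 and 8.92 CPM in Smad4-iECKO cells and 2.05, 1.44 and 3.36 CPM in Smad4f/f (log2 fold change 1.93, standard error 0.58). The other leukocyte chains overlapped: Itgal was at 3.30 ± 2.33 CPM in Smad4-iECKO cells and 1.14 ± 0.696 CPM in Smad4f/f, and Itgb2 at 2.30 ± 2.39 CPM in Smad4-iECKO cells and 2.16 ± 2.12 CPM in Smad4f/f. Itgax, which did not pass the filter, was at 2.15 ± 2.43 CPM in Smad4-iECKO cells and 0.342 ± 0.170 CPM in Smad4f/f, with 0 reads in Smad4-iECKO replicate 2. The 12 microglia markers summed to 75.7 to 111.2 CPM in Smad4-iECKO cells and 38.1 to 59.0 CPM in Smad4f/f, without overlap, and their part in the level of Itgam was not tested. Itgad, Itgb2l, Itgb6 and Itgb7 reached at most 33 reads in any library and were not tested.

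Partners, ligands and intracellular linkers of integrins were read as lists, beside the 48.2% of all tested genes with a positive log2 fold change and their median of -0.02. Of 10 partners of alpha6-beta4, 9 were tested, 0 passed in either direction, 5 were positive and the median log2 fold change was 0.08. Plec, the plectin that binds the beta4 tail, was at 533.5, 1792 and 801.2 CPM in Smad4-iECKO cells and 739.1, 242.5 and 663.3 CPM in Smad4f/f. It overlapped, highest in the shallow Smad4-iECKO replicate 2, with a log2 fold change of 0.93 (standard error 0.56). Dst (dystonin, 0.12, standard error 0.39) and Dag1 (dystroglycan, another laminin receptor, 0.08, standard error 0.31) overlapped as well. The tetraspanin Cd151, which associates with laminin-binding integrins, was at 50.2 ± 19.5 CPM in Smad4-iECKO cells and 79.7 ± 61.5 CPM in Smad4f/f.

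Among the 18 integrin ligands 17 had a positive log2 fold change, with a median of 0.50, and 0 passed in either direction. The collagen IV chain Col4a1 was at 3519, 15977 and 5308 CPM in Smad4-iECKO cells and 5174, 949.6 and 2687 CPM in Smad4f/f. Smad4-iECKO replicate 2 held the highest value and Smad4-iECKO replicate 1 lay below Smad4f/f replicate 1. Col4a2 had a log2 fold change of 1.77 (standard error 0.74), Lamc1, the laminin gamma1 chain, 1.02 (0.49), and fibronectin Fn1 0.39 (0.53), each with overlapping groups. Lama5, the laminin alpha5 chain of mature vessel basement membrane and a ligand of alpha6 integrins, was at 117.6 ± 43.1 CPM in Smad4-iECKO cells and 108.1 ± 58.2 CPM in Smad4f/f. The 5 fibroblast markers, a cell type that makes many of these ligands, summed to 151.4, 726.6 and 126.8 CPM in Smad4-iECKO cells and 174.5, 47.9 and 102.0 CPM in Smad4f/f, with Lum at 0 in all 6. Of these markers 3 passed the filter, with log2 fold changes of 1.20 to 2.48. For 2 of the 3, all Smad4-iECKO libraries lay above all Smad4f/f libraries, as for 2.49% of all tested genes. The part of fibroblasts in the ligand levels was not tested. Of the 37 activators and focal adhesion proteins, 36 were tested, 24 were positive, the median was 0.24 and 0 passed in either direction. The talins Tln1 and Tln2, which activate integrins, had log2 fold changes of 0.56 (standard error 0.46) and 0.28 (0.35), the actin linker Actn4 0.53 (0.34) and the tetraspanin Cd81 0.10 (0.35). Of the adhesion complex, integrin-linked kinase Ilk and focal adhesion kinase Ptk2 had -0.28 (0.31) and -0.25 (0.33). All of these overlapped between the groups. The genes of these lists with all Smad4-iECKO libraries above all Smad4f/f libraries, as 2.49% of all tested genes had, are named here after their values were seen. They were the ligands Tnc (tenascin C, 0.79) and Lama1 (laminin alpha1 chain, 0.67) and the adhesion genes Tns3 (tensin 3, 0.75) and Ptk2b (Pyk2 kinase, 1.69), each with its log2 fold change.

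Genes whose levels ran most like Itgb4 over the 6 libraries were found by the root mean square difference of log2 CPM after centring each gene on its own mean, over 11988 genes. The nearest were Cdkn1a, the cell cycle inhibitor p21 (0.248), Adam12, a disintegrin metalloprotease (0.259), and Ephx1, an epoxide hydrolase (0.268). Plvap, the protein of fenestral diaphragms (0.298), and the non-coding RNA gene Pvt1 (0.317) came next. Cdkn1a was at 28.6, 79.9 and 49.9 CPM in Smad4-iECKO cells and 15.8, 8.18 and 14.0 CPM in Smad4f/f. Plvap was at 32.5, 94.2 and 65.5 CPM in Smad4-iECKO cells and 22.0, 5.30 and 16.4 CPM in Smad4f/f. All 5 had Smad4-iECKO replicate 2 as their highest and Smad4f/f replicate 2 as their lowest library, as Itgb4 did. Since Itgb4 was chosen by its group difference, genes picked for a like profile share that difference through the choice. Within the integrin set the nearest to Itgb4 was Itgb3 (0.528) and the farthest was Itgb8 (1.55).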

How the data were processed

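Bulk RNA-seq counts of 6 retinal endothelial cell samples were analysed. The count table deposited by the authors held raw counts per gene. STAR, DESeq2 and mm10 are named in the submitters' processing notes, without versions. For the counting step neither tool nor annotation is given in the sources used here. The library kit was TruSeq RNA v2 according to the labels' protocols. A further table deposited by the authors gives per the file headers, a mean normalized signal, log2 fold changes and their errors, a score for the test, and p-values before and after adjustment.

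Of 3 identical columns per sample, 1 was used. Genes were tested in edgeR 4.0.16 under R 4.3.3 (quasi-likelihood) for Smad4-iECKO against Smad4f/f with TMM scaling, filterByExpr (minimum count 10, minimum total 15), no covariate and Benjamini-Hochberg adjustment over all tested genes. Standard errors are the log2 fold change divided by the square root of F. Alternatives used limma-voom (limma 3.58.1) and DESeq2 1.42.0. The edgeR, DESeq2 and limma-voom fits with each sample entered once were run on simulated counts with known changes, and the outcome is not given here. The other settings were not run on simulated counts. Log ratios used log2(CPM + 0.5). Exon lengths and coordinates are from GENCODE M21 (mm10), whose gene models may differ from those counted. An exon length is the number of bases in any annotated exon of a gene. It can exceed the length of the transcript expressed, so levels per kilobase are not numbers of transcripts. Replicate numbers follow accession order and pair nothing across groups. The members, gene lists and naming rule (all members, other subunits with a mean of at least 1 CPM, the 4 most abundant genes of each pathway list with 5 fixed names, and the 5 profiles nearest to Itgb4 among genes with a mean of at least 5 CPM) were chosen with earlier results of these data known. Itgax was named under that rule although untested. Intervals and floors of counts cover counting error only.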

Additional observations from a re-analysis of the deposited data

How the results depend on the processing

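The log2 fold change of Itgb4 was positive under all 21 alternatives, from 1.62 (the 4 Lit38 samples) to 2.66 (DESeq2 without Smad4f/f replicate 1), and from 1.90 to 2.65 when each library was left out of the edgeR fit. The Lit38 value is a fold 1.5 times smaller than that over all samples; the cause was not tested. The group difference in the Itgb4 to Itga6 ratio stayed between 1.77 and 2.37, and that relative to the endothelial markers between 1.97 and 2.54. The number of the 10 genes past the threshold was 0 in edgeR and limma-voom throughout, 1 with DESeq2 and with DESeq2 without Smad4f/f replicate 1, 0 in the other 5 DESeq2 fits without a library, and 2 with DESeq2 on all 18 columns with or without a prior, where each sample counts 3 times. The pathway and other integrin lists held 17 other subunits, 10 partners, 18 ligands and 37 activators and focal adhesion genes. Of these, 23 passed with all 18 columns and 22 with the prior as well. The fit with the prior called 11.8% of 18526 genes, and the share without it is not given here. In the other 13 alternatives run for these lists 0 passed, and DESeq2 without a library was not among them. Itgb3 passed with all 18 columns (log2 fold change 1.26, or 1.04 with the prior).

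For the other 9 genes 115 of 135 values kept their sign; Itga5 and Itgb3 kept it in all, but Itga5 ran from 0.14 (Lit38 samples) and 0.18 (limma-voom) to 1.39. Scaling to the endothelial markers, which moved the median of all genes to -0.30, turned Itga6 (0.12), Itga1 (0.11), Itgb1 (0.040), Itga3 (-0.27) and Itgb8 (-0.31). Limma-voom with quality weights turned Itga6 (0.16), Itga1 (0.14), Itgb1 (0.18) and Itgb5 (-0.026). With the title prefix as a block Itgb4 was at 2.24, none of the 10 genes passed, Itga6 was at 0.073 and Itga1 at 0.016, and in Lit38 alone Itgb5 was at -0.13. With a library left out, the values ran from -0.55 to 0.45 for Itga6, -0.72 to 0.36 for Itga1, -0.63 to 0.44 for Itgb1, -0.13 to 0.38 for Itgav and -0.15 to 0.47 for Itgb8. None of these genes passed the edgeR threshold in any setting, and the cause of the turns was not tested. Fits with all 18 columns and a prior, and DESeq2 without each library, were chosen after seeing the data. Beyond that block no pairing by replicate was made, since the replicate numbers follow accession order. In Smad4-iECKO replicate 2 a difference at a few CPM was not detectable at its depth.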
